A study of Mus musculus with 32 samples.

Results

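Repopulated border macrophages of the brain were compared here between the lesioned and the opposite hemisphere 1 day after an experimental stroke. The members are the libraries of subdural CNS-associated macrophages (sdCAMs, the perivascular and leptomeningeal macrophages) from mice that had received BLZ945. They are the sorted-cell libraries, by their labels, of the BLZ945 mice C2, C3, C4 and D1. The ipsilateral library of mouse C2 was left out because it was labelled as degraded RNA and held 55155 counts. That left 7 of the 32 libraries of the series: 3 ipsilateral (mice C3, C4 and D1) and 4 contralateral (C2, C3, C4 and D1).

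All mice were wild-type C57BL/6JCrl. BLZ945, a small-molecule inhibitor of the CSF1 receptor, was given by gavage at 200 mg per kg body weight a day for 7 days, and control (CTL) mice received its cyclodextrin vehicle. A clot was formed 8 weeks later by injecting thrombin into 1 middle cerebral artery, and the hemispheres were collected 1 day afterwards. The sort took cells that carried CD206, CD11b and CD45 and lacked CD11c, Ly6G and Ly6C, from brain freed of choroid plexus, and tissue RNA of the same mice was sequenced as well. Both sexes were used in the study. The sort used surface proteins and carried no mark of when a cell had arrived in the brain, so each library may hold both surviving and newly arrived cells. The 7 libraries held 7397393 to 10314584 counts, and all carried the same batch label.

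Border macrophages sit along vessels and in the meninges, where they take up proteins and debris, present antigen and sense damage through pattern recognition receptors. A drug that blocks the CSF1 receptor, whose signals keep these cells alive, empties their niche, which refills once the drug is withdrawn. In stroke these macrophages lie next to the vessels that are occluded and reperfused.

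The sorting gate was checked first against 3 genes that mark these cells. Mrc1, which encodes the CD206 used in the gate, was read at 1273, 1210 and 2819 CPM (reads of a gene relative to each library's TMM-adjusted total) in ipsilateral libraries C3, C4 and D1, and at 400.0, 661, 344 and 1243 CPM in contralateral libraries C2, C3, C4 and D1. The groups overlapped by a narrow margin, since contralateral D1 lay above ipsilateral C4. The hemoglobin scavenger receptor Cd163 stood at 238, 624 and 321 CPM against 56.6, 138, 124 and 222 CPM, with no overlap. The platelet factor 4 gene Pf4 stood at 485, 617 and 958 CPM against 271, 245, 160.0 and 340 CPM, again with no overlap. All 3 markers were therefore present in every library, and all 3 were read at higher levels on the lesioned side of each of the 3 mice with both hemispheres.

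Of the 3 markers, Pf4 passed the test across all genes (edgeR quasi-likelihood, log2 fold change 1.44 ± 0.36 SE, adjusted p = 0.0294, n = 3 and 4). Mrc1 (1.42 ± 0.49, adjusted p = 0.107) and Cd163 (1.54 ± 0.50, adjusted p = 0.0822) did not. With the mouse as a block, Mrc1 passed as well (edgeR adjusted p = 0.0247). Across the whole sdCAM table, 220 of 18297 tested genes (1.20%) were called higher in the ipsilateral libraries and 807 (4.41%) lower. These shares are the background for the counts of BLZ945 sdCAM calls in each gene list below. The 2 directions differed in size: the median log2 fold change was 1.01 among the genes called higher and -4.87 among those called lower.

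The other cells that the gate could have admitted were counted before any macrophage gene was interpreted. Microglial genes were abundant on both sides. Per kilobase of exon, the median member of a list of 14 microglial genes stood at 486, 393 and 241 CPM in ipsilateral C3, C4 and D1, and the median member of the 20 CAM identity genes at 37.4, 51.7 and 62.4 CPM. In contralateral C2, C3, C4 and D1 the microglial median was 243, 276, 129 and 211 CPM per kilobase and the CAM median 14.2, 22.8, 14.4 and 39.7. In every library, microglial genes were thus the more strongly read of the 2 lists. P2ry12, the microglial purinergic receptor, stood at 3329, 2364 and 1719 CPM against 1932, 2243, 1118 and 1430 CPM, and its groups overlapped (edgeR log2 fold change 0.56 ± 0.33, adjusted p = 0.325). In sorted bulk samples, fewer cells of a type and less RNA per cell cannot be told apart.

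The clearest hemisphere difference belonged to genes of the vessel wall. All 12 endothelial markers were called lower in the ipsilateral libraries, against 4.41% of all genes, with a median log2 fold change of -4.74 beside -0.15 over all tested genes. Blocking on the mouse left 11 called, without the VEGF receptor gene Kdr (edgeR adjusted p = 0.0506). Their summed level was 220.1, 187 and 229 CPM in ipsilateral C3, C4 and D1 and 2914, 4510, 5347 and 2793 CPM in contralateral C2, C3, C4 and D1, an 18.4-fold difference of the means. None of the 12 was at 0 throughout the ipsilateral group, and Slc2a1, the glucose transporter of brain endothelium, was the most abundant member.

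Pecam1, the junctional adhesion protein of endothelium, had the smallest p of the whole table, followed by Ptprb. It was read at 7.31, 7.03 and 12.1 CPM in the ipsilateral libraries and at 161, 283, 192 and 130 CPM in the contralateral ones (log2 fold change -4.44 ± 0.37, edgeR adjusted p = 4.335e-05). The VEGF receptor gene Flt1 stood at 8.04, 3.01 and 6.38 against 215, 241, 283 and 218 CPM (-5.36 ± 0.47, adjusted p = 4.7e-05). Ptprb, the vascular endothelial protein tyrosine phosphatase, stood below 1 CPM in each ipsilateral library (0.731, 0.879 and 0.927) and at 92.3, 80.4, 69.4 and 73.8 CPM in the contralateral ones. Cldn5, the claudin of the blood-brain barrier, stood at 15.97, 10.8 and 17.7 against 345, 397, 463 and 273 CPM. In these 4 genes the lowest contralateral library lay several-fold above the highest ipsilateral one.

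Genes of the cells that wrap vessels went the same way. Of 8 mural cell genes, 4 were called lower and none higher, and 7 had every ipsilateral library below every contralateral one, against 12.4% of all genes tested. Acta2, smooth muscle actin, stood at 80.3, 58.0 and 45.1 CPM against 1626, 1353, 3746 and 572 CPM (log2 fold change -4.90 ± 0.66, edgeR adjusted p = 0.0012). The list summed to 214, 211 and 129 CPM in the ipsilateral libraries and 2353, 2160, 5096 and 1218 CPM in the contralateral ones. Of 10 fibroblast genes Ptgds and Ogn were called lower, and both calls were lost with the mouse as a block (edgeR adjusted p = 0.0748 and 0.135).

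Genes of glia were lower too. Of 12 oligodendrocyte genes 6 were called lower, with sums of 315, 235 and 322 CPM against 3842, 1812, 1013 and 1615 CPM. Mal, a myelin and lymphocyte protein, stood at 5.97, 3.89 and 9.37 CPM against 280, 248, 319 and 152 CPM (log2 fold change -5.27 ± 0.60, edgeR adjusted p = 4.067e-04). Astrocyte genes gave 4 called lower of 10, with sums of 458, 314 and 193 CPM against 1731, 1032, 784 and 367 CPM, which overlap. Neuronal genes were scarce throughout, with sums of at most 109 CPM and 1 call (Stmn2) of 12, which was lost with the mouse as a block (edgeR adjusted p = 0.063).

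Choroid plexus RNA differed widely between mice. Although the plexus had been dissected away, its 8 epithelial genes summed to 32280 CPM in contralateral C3, 56390 CPM in contralateral C4 and 8954 CPM in contralateral D1, but to 1918 CPM in contralateral C2. In ipsilateral C3, C4 and D1 the sums were 1811, 550.4 and 273 CPM. Ttr, the transthyretin of plexus epithelium and the most abundant member, reached 36040 CPM in contralateral C4 and was 188 CPM in ipsilateral D1. The test called 2 of the 8 lower, Enpp2 and Otx2, and with the mouse as a block it called all 8 (for Ttr, edgeR adjusted p = 0.227 without and 6.448e-04 with the block).

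Several of the most extreme falls were genes of motile cilia, which plexus and ventricle epithelia carry. Rsph1, a radial spoke protein, had 0 counts in the 3 ipsilateral libraries and 49.0, 52.4, 64.6 and 28.9 CPM in the contralateral ones, at least 420.5-fold lower against a floor of 3 counts over the ipsilateral group. Cfap52, an axonemal protein, had 0 counts against 17.5, 33.4, 39.8 and 2.46 CPM, at least 201-fold lower. Of 67 tested genes with the name stems Cfap, Dnah, Dnai or Rsph, a set chosen after these values were seen, 12 were called lower and none higher. Blocking on the mouse left 9 called lower, and 5 to 10 in the fits without 1 mouse. In all, 154 of the 807 genes called lower had no count in any ipsilateral library, and 374 averaged under 1 CPM there.

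**Figure D1:**
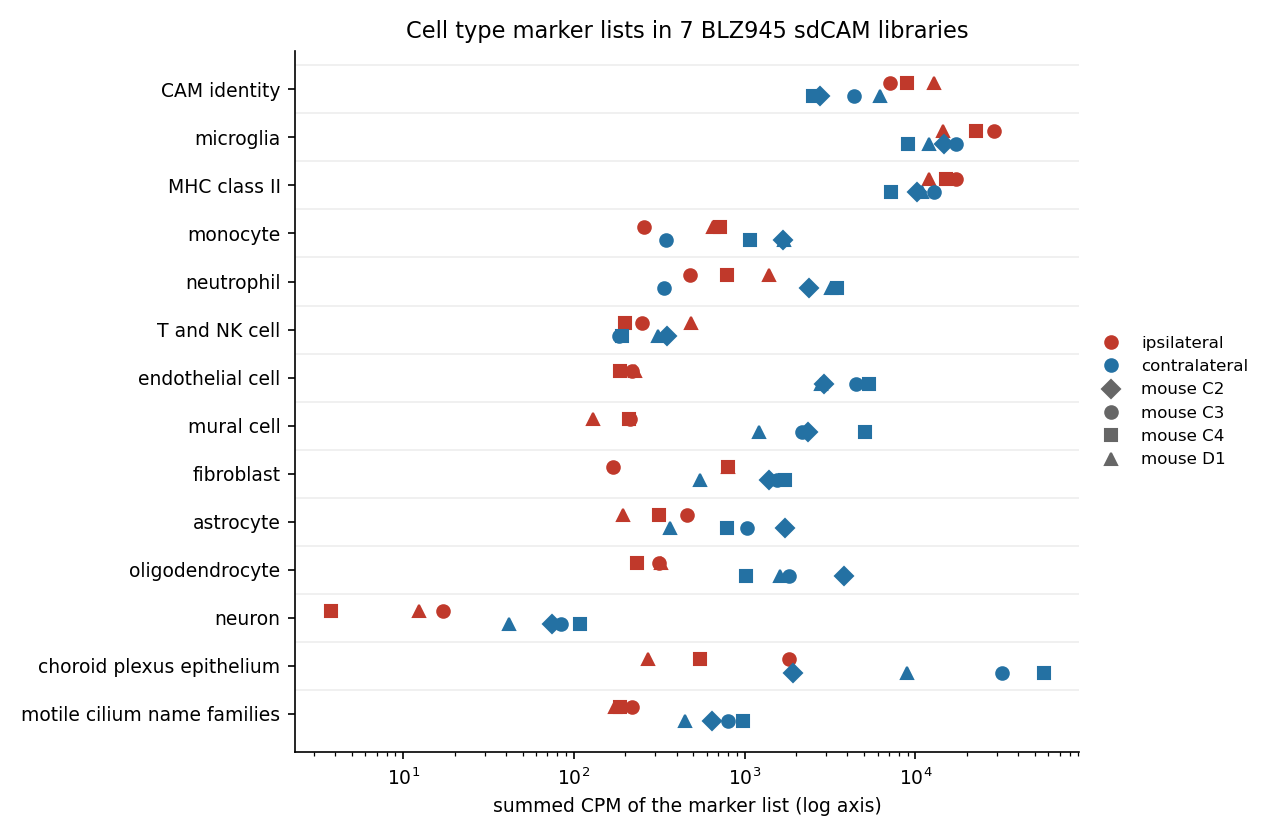
Summed CPM of each marker list (log axis) in the 3 ipsilateral and 4 contralateral BLZ945 sdCAM libraries, each symbol standing for 1 mouse. Endothelial, mural, oligodendrocyte and neuron sums are lower in all ipsilateral libraries than in any contralateral one, whereas microglial and MHC class II sums overlap.

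The CTL mice give the same comparison in cells that were never depleted. The endothelial list summed to 259 to 400.3 CPM in their 3 ipsilateral libraries and to 1733 to 5391 CPM in their 4 contralateral ones. Its median log2 fold change in these mice was -3.73, beside -0.11 over all tested genes. Choroid plexus sums were 7.78 to 495 CPM against 204 to 13450 CPM. The 220 genes called higher in BLZ945 mice had a median log2 fold change of 0.62 in CTL mice, where 219 of them were positive. The 807 called lower had a median of -3.29 in CTL mice, where 801 of them were negative. The test of the difference between BLZ945 and CTL in the hemisphere effect called 0 genes by edgeR (912 at an unadjusted p under 0.05, which is 4.98% of the genes tested) and 48 by DESeq2.

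Within the brain tissue of the same BLZ945 mice no vessel gene of these lists was called lower. The median log2 fold change of the 12 endothelial genes there was 0.10, and 1 of them was called higher and none lower (8 tissue libraries, edgeR, where 0.845% of genes were called higher). Of the 807 sdCAM genes called lower, 38.3% had a higher mean CPM in contralateral tissue than in contralateral sdCAMs, against 15.9% of the 220 called higher and 47.5% of all genes measured in both. The tissue and sorted tables were scaled separately, so these shares describe levels across tables. The part of endothelial, glial and plexus RNA in the other differences between hemispheres was not tested.

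Against this background, genes of the macrophage lineage were mostly read at higher levels in the ipsilateral libraries on this scale. Microglial genes were abundant in every library, and the part of microglia in these differences was not tested. Of 20 CAM identity genes 3 were called higher, against 1.20% of all genes, and none lower. The median log2 fold change of the list was 1.33. In 8 of the 20, every ipsilateral library lay above every contralateral one, against 7.44% of all genes tested. The 3 called genes were Pf4, Lyve1, the hyaluronan receptor of perivascular and meningeal macrophages, and Ms4a7, a tetraspan membrane gene of border macrophages. Lyve1 stood at 398, 592 and 917 CPM against 108, 269.6, 104 and 314 CPM (log2 fold change 1.68 ± 0.42, edgeR adjusted p = 0.0296), with no overlap. Ms4a7 had overlapping groups and lost its call with the mouse as a block (edgeR adjusted p = 0.0466 without and 0.0529 with it). With the block 4 members were called higher. Among them was F13a1, the most abundant member (edgeR adjusted p = 0.0584 without and 0.0354 with it). The list summed to 7118, 8886 and 12880 CPM in ipsilateral C3, C4 and D1 and 2780, 4349, 2522 and 6208 CPM in contralateral C2, C3, C4 and D1.

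**Figure D2:**
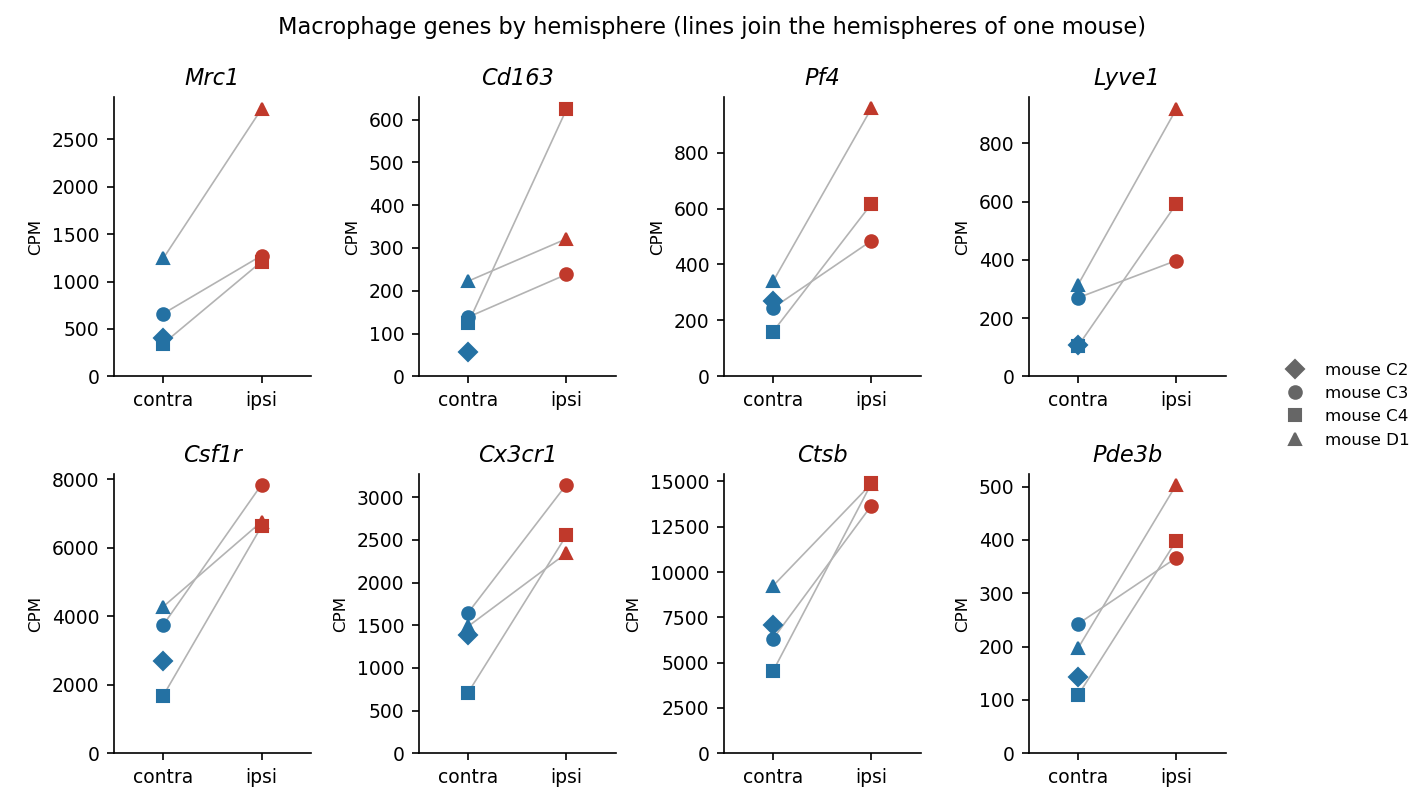
CPM of 8 macrophage genes in contralateral (blue) and ipsilateral (red) libraries, with a line joining the hemispheres of 1 mouse. All 8 genes are higher on the ipsilateral side in each of mice C3, C4 and D1, and Mrc1 is the one whose groups overlap.

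Of the 12 largest rises among called genes of at least 10 CPM, the first was Zfp583, by 2.71 ± 0.75 on the log2 scale. Its call (edgeR adjusted p = 0.0480) was lost with the mouse as a block (0.228). Tmppe, Lyve1, Npat, Hk3, Mcm3, Zfp715 and Pf4 were among the 12, as were Ccl8, Fcna, Tnfrsf11a and Dab2. Ccl8, a monocyte-attracting chemokine, stood at 215, 142 and 429.6 CPM against 38.2, 108, 53.5 and 108 CPM (log2 fold change 1.77 ± 0.43, edgeR adjusted p = 0.0253). Fcna, a soluble lectin of the complement system, stood at 59.6, 141 and 128 CPM against 16.6, 42.5, 43.4 and 31.7 CPM (1.71 ± 0.38, adjusted p = 0.0181). Tnfrsf11a, the receptor RANK, stood at 187, 279 and 307 CPM against 95.0, 86.4, 54.99 and 117 CPM (1.54 ± 0.28, adjusted p = 0.0062), the smallest p among the genes called higher. The endocytic adaptor gene Dab2 was higher by 1.58 ± 0.43 on the log2 scale (adjusted p = 0.0431). Each of Ccl8, Fcna, Tnfrsf11a and Dab2 had its groups apart.

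Csf1r, which encodes the receptor that BLZ945 inhibits, was called higher in the ipsilateral libraries. In CTL mice, which never received the drug, it differed between hemispheres by 0.59 ± 0.29 on the log2 scale (edgeR adjusted p = 0.299). In BLZ945 mice it stood at 7848, 6632 and 6767 CPM in the ipsilateral libraries and 2711, 3748, 1682 and 4283 CPM in the contralateral ones (log2 fold change 1.19 ± 0.29, edgeR adjusted p = 0.0285). It was the 1 called member of 9 in a list of the CSF1 receptor axis (median 0.67). Of 22 macrophage transcription factor genes none was called (median 0.67), and the myeloid master regulator Spi1 differed by 0.77 ± 0.22 (adjusted p = 0.0556). Cx3cr1, the fractalkine receptor of microglia and macrophages, stood at 3149, 2554 and 2345 against 1391, 1647, 711 and 1487 CPM (1.04 ± 0.24, adjusted p = 0.0210), the 1 call among 14 microglial genes.

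Lysosomal genes gave the most calls of higher genes among the lists written at the start. Of 31 tested members 11 were called higher and none lower, against 1.20% of all genes, and 30 of 31 had a positive log2 fold change (median 0.70). They included the cathepsin genes Ctsa, Ctsb, Ctsc and Ctsz, the asparagine endopeptidase Lgmn, the glycosidases Gusb and Man2b1, the acid lipase Lipa, the membrane glycoprotein Cd68 and progranulin (Grn). Ctsb, a cysteine protease and the most abundant gene called higher, stood at 13670, 14890 and 14880 CPM against 7073, 6318, 4536 and 9240 CPM (log2 fold change 1.09 ± 0.26, edgeR adjusted p = 0.0222). Gusb, beta-glucuronidase, stood at 889, 855 and 569 CPM against 339, 403, 236 and 424 CPM (1.14 ± 0.24, adjusted p = 0.0143). With the mouse as a block, 6 of the 31 were called. Among the calls lost were those of Ctsa (edgeR adjusted p = 0.0545), Ctsz (0.0635), Grn (0.0558) and Man2b1 (0.0625).

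With 11 lysosomal genes called in 1 direction, the promoters of this list were read for CACGTG, the core of the E-box that the lysosomal regulators TFEB and TFE3 recognise. The search covered both strands, for which these letters read alike, in RefSeq windows from 250 bases before to 50 after each gene's start (GRCm38.p6). Of 25 list members with a window, 9 held it, against 8.09% of the 27025 genes with a window, 10.8% of the tested genes with one and 12.5% of the genes called higher with one. Of the 9 called members of the list with a window, 2 held it (22.2%). The 2 called members with a match are shown, in the direction of transcription with the motif in capitals. Ctsa lies at chr2:164833523-164833822 on the plus strand and holds 2 matches, and Lgmn lies at chr12:102439043-102439342 on the minus strand and holds 1.
Ctsa: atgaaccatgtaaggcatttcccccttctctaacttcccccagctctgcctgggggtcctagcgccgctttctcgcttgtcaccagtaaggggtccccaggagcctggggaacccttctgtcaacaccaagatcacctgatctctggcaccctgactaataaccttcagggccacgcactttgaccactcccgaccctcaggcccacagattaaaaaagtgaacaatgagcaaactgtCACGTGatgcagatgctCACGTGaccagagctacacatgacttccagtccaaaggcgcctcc
Lgmn: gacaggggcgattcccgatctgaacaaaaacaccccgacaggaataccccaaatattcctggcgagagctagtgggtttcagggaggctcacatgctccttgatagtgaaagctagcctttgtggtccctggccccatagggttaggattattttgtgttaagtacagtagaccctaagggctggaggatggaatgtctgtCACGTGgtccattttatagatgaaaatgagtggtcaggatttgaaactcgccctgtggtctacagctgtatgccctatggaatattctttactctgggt

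These 2 genes carry the values to set beside the sequences. Ctsa, the protective protein cathepsin A, stood at 2237, 2271 and 2060 CPM against 1112, 1261, 829.5 and 1486 CPM (log2 fold change 0.90 ± 0.21, edgeR adjusted p = 0.0241). Lgmn stood at 4885, 4731 and 3431 CPM against 2484, 2453, 1392 and 2530 CPM (0.97 ± 0.22, adjusted p = 0.0176). A match of letters is a description of the window and not a measured binding site.

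Genes of the innate sensing and effector machinery formed the next groups. Across all genes 1.20% were called higher and 4.41% lower, which is the background for each list of this paragraph. Of 23 Toll-like receptor and adaptor genes 5 were called higher and none lower (median 0.82). They were the nucleic acid sensors Tlr7 and Tlr13, the lipopolysaccharide receptor Tlr4, the adaptor Ticam2 and the kinase Irak4. Tlr13, which senses bacterial ribosomal RNA, stood at 692, 669.9 and 713 CPM against 292, 247, 156 and 407 CPM (log2 fold change 1.33 ± 0.26, edgeR adjusted p = 0.0094), and the 3 ipsilateral libraries were almost equal. The call of Irak4 was lost with the mouse as a block (edgeR adjusted p = 0.0624). Of 19 complement genes, the C1q chain genes C1qa, C1qb and C1qc and the anaphylatoxin receptor C5ar1 were called higher (median 0.85), and the complement inhibitor Cd55 lower. C1qb stood at 10260, 9283 and 7617 CPM against 5015, 5951, 2884 and 4951 CPM (0.95 ± 0.24, adjusted p = 0.0332, and 0.0517 with the mouse as a block), and C1qa also lost its call with the block (adjusted p = 0.0539). The NADPH oxidase list gave 1 call of 7 (Cybc1, a chaperone of the oxidase) and the engulfment receptor list 2 higher (Fcgr3 and Pros1) and 2 lower (Mfge8 and Tyro3) of 23. The block removed the calls of Cybc1 (edgeR adjusted p = 0.0633), Fcgr3 (0.0679) and Tyro3 (0.0541). It also added calls, among them the oxidase subunit gene Cybb (0.0439). With the block 5 complement, 1 NADPH oxidase and 3 engulfment receptor genes were called higher. Alox5, which starts leukotriene synthesis, stood at 120.4, 121 and 127 CPM against 64.6, 52.5, 33.0 and 64.2 CPM (1.20 ± 0.24, adjusted p = 0.0113).

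Endoplasmic reticulum genes also had members among the calls, where 1.20% of all genes were called higher. Of 21 integrated stress and unfolded protein genes 4 were called higher and none lower: the chaperone partner Sdf2l1, the lectin chaperone Calr and the disulfide isomerases Pdia4 and Pdia6 (list median 0.36). Calr stood at 1545, 1755 and 1415 CPM against 1018, 843, 747 and 960 CPM (log2 fold change 0.82 ± 0.17, edgeR adjusted p = 0.0132). In a list of 49 genes of N-glycosylation and quality control in this compartment, assembled after the calls had been seen and therefore given as a description, 16 were called higher and none lower (median 0.59). The oligosaccharyltransferase subunit Rpn1 varied little within either group, at 702, 673 and 659 CPM against 420.2, 432, 423 and 423 CPM (0.68 ± 0.15, adjusted p = 0.0154). With the mouse as a block the calls of Rpn1 (edgeR adjusted p = 0.0525) and Pdia6 (0.0618) were lost. Sel1l, which serves degradation of misfolded proteins, stood at 305, 332 and 344 CPM against 162, 169.8, 129.6 and 189 CPM.

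Only 1 of the genes called higher, Pde3b, kept its call with the mouse as a block, by DESeq2 and in each of the 4 fits without 1 BLZ945 mouse, whereas 176 of the genes called lower did. Pde3b, a cyclic nucleotide phosphodiesterase, stood at 366, 398 and 504 CPM against 143, 242, 109 and 197 CPM (log2 fold change 1.29 ± 0.24, edgeR adjusted p = 0.0074). The count of genes called higher was 14 without mouse C3, 8 without C4, 86 without C2 and 124 without D1, and 4 when both low-count libraries were kept. The count of genes called lower was 336, 262, 580 and 466 in the same order, and 424. Of the endothelial list, 10 to 12 members stayed called lower in these fits. The number of lysosomal genes called higher was 0 to 8 in the same fits, against 11.

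**Figure D3:**
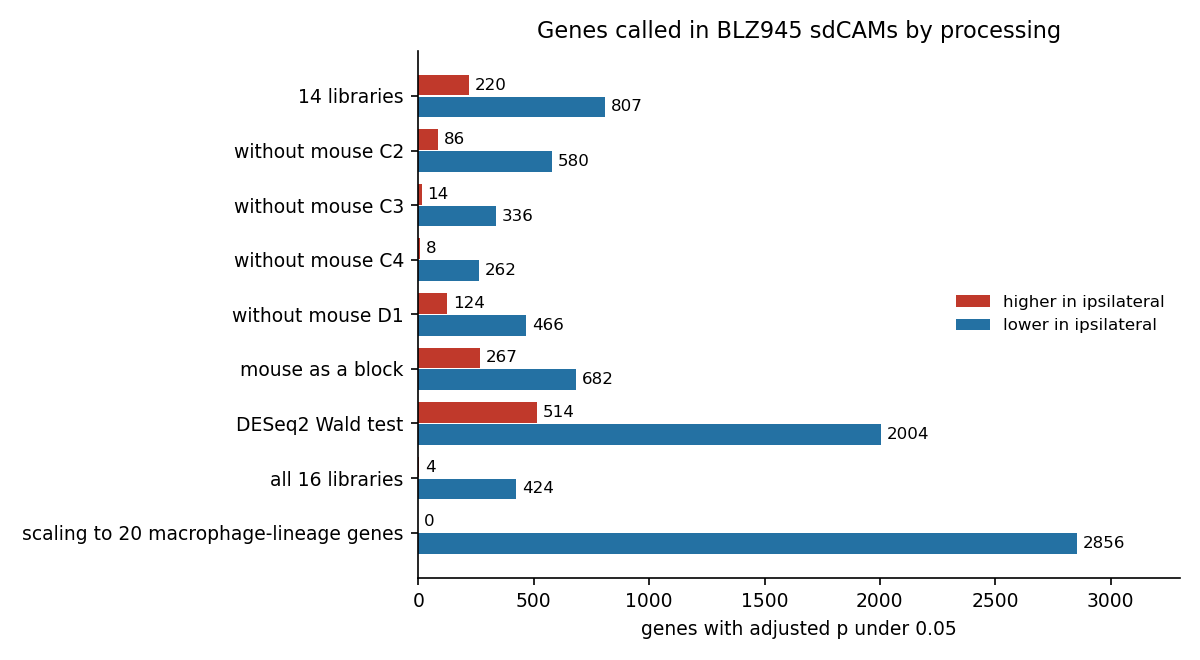
Number of genes with an adjusted p under 0.05, higher (red) or lower (blue) in ipsilateral BLZ945 sdCAMs, under 9 ways of processing. Calls of higher genes fall from 220 to between 8 and 124 when 1 mouse is left out and to 0 when libraries are scaled to macrophage genes, while calls of lower genes stay above 200 throughout.

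None of 20 cytokine and cytokine receptor genes, none of 26 interferon-stimulated genes and none of 14 NF-kappaB feedback genes was called by edgeR. With the mouse as a block 2 of the 20 were called higher, the interleukin 4 receptor gene Il4ra (edgeR adjusted p = 0.0064, and 0.0642 without the block) and the TNF receptor gene Tnfrsf1b (0.0442 and 0.0949). Il4ra stood at 559, 641 and 904.5 CPM against 236, 205, 142 and 453 CPM, with no overlap. Tnfrsf1b stood at 509.6, 511 and 541 CPM against 283, 240.2, 159 and 419.5 CPM, again with no overlap. The oncostatin M receptor gene Osmr had every ipsilateral library below every contralateral one. Il1b, Ccl2 and Spp1, in contrast, spread widely between mice and overlapped between hemispheres. Il1b, the gene of interleukin 1 beta, stood at 71.4, 211 and 338 CPM in the ipsilateral libraries and at 872, 18.1, 1346 and 961 CPM in contralateral C2, C3, C4 and D1 (log2 fold change -1.95 ± 1.20, edgeR adjusted p = 0.347). For Il1b, contralateral C3 was the lowest of all 7 libraries and the other 3 contralateral libraries were the highest. Ccl2, the main monocyte chemokine, stood at 111, 193 and 519 CPM against 456, 34.9, 127 and 411 CPM (0.09 ± 0.91, adjusted p = 0.983). Spp1, osteopontin, stood at 1151, 2176 and 2271 CPM against 4189, 126, 1511 and 4299 CPM (-0.44 ± 1.40, adjusted p = 0.91).

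Markers of neutrophils, which the gate was set to remove, were also lowest in sum in contralateral C3 and highest in the other 3 contralateral libraries. Their 16 genes summed to 478, 786 and 1395 CPM in ipsilateral C3, C4 and D1 and to 2379, 336, 3476 and 3193 CPM in contralateral C2, C3, C4 and D1. S100a8, a calcium-binding alarmin and the most abundant of them, stood at 36.9, 165 and 314 CPM against 958, 44.5, 1535 and 868 CPM, while Ly6g was at 0 counts in the 3 ipsilateral libraries and in contralateral C3. One member, Lcn2, an iron-sequestering lipocalin, was called lower (-2.90 ± 0.70, edgeR adjusted p = 0.0254), and none was called higher. A share of 1 in 16 is near the 4.41% of all genes called lower. Monocyte genes summed to 257, 718 and 649.5 CPM against 1673, 344, 1078 and 1694 CPM. Of 13 only Ace was called lower, again a share near the 4.41% of all genes. With the mouse as a block 2 were called lower, Ace and Chil3 (edgeR adjusted p = 0.0137 and 0.0150), though the groups of Chil3 overlapped. Ace, the angiotensin-converting enzyme, stood at 3.29, 0.879 and 3.91 CPM against 15.7, 105.8, 121 and 46.5 CPM. The part of these cells in the values of Il1b, Ccl2 or Ace was not tested.

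In the brain tissue of the same mice, 160 genes were called higher ipsilaterally and 10 lower (edgeR, 4 libraries a side). With the mouse as a block the counts were 525 and 336. The 160 were 0.845% of the 18932 tissue genes tested, which is the background for the tissue counts of higher genes below. Of the lists just described, 4 of 20 cytokine and receptor genes, 3 of 26 interferon-stimulated genes and 2 of 14 NF-kappaB feedback genes were called higher in tissue, and none lower. Among 15 CC chemokine genes 6 were called higher in tissue, including Ccl2 (log2 fold change 4.81, edgeR adjusted p = 0.0128), Ccl4 and Ccl12, whereas in sdCAMs 1 of 15 was called (Ccl8). Among 24 matrix and protease genes 13 were called higher in tissue, and in sdCAMs Timp2 was called higher and Timp3 and Adamts1 lower. The call of Timp2 was lost with the mouse as a block (edgeR adjusted p = 0.142). Hmox1, which degrades heme, was higher by 3.10 in tissue (adjusted p = 3.13e-04). In sdCAMs it stood at 91.5, 809 and 464 CPM against 144, 74.5, 127 and 257 CPM (1.59 ± 0.73, adjusted p = 0.215), so that ipsilateral C4 was high and ipsilateral C3 lay within the contralateral range. No test compared the tissue and sdCAM effects with each other.

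Genes of DNA replication were mostly read at higher levels on the ipsilateral side, with 1 call. Of 30 S phase genes 1 was called higher, the replicative helicase subunit Mcm3, at 132, 119.6 and 83.2 CPM against 50.8, 32.2, 21.1 and 54.3 CPM (log2 fold change 1.495 ± 0.33, edgeR adjusted p = 0.0164), and with the mouse as a block 4 were called. The list had a median of 0.77, with 25 of 30 values positive and 11 of 30 genes with every ipsilateral library above every contralateral one (7.44% of all genes). Its members summed to 841, 889 and 779.8 CPM in the ipsilateral libraries and to 517, 547, 371 and 473.5 CPM in the contralateral ones, with no overlap. Scaled to macrophage-lineage genes, the median was -0.05. None of 30 G2 and mitosis genes was called (median -0.31). None of 86 cytosolic ribosomal protein genes and none of 11 MHC class II genes was called (medians -0.04 and 0.45). Of 85 nuclear genes of oxidative phosphorylation 2 were called lower (Uqcrfs1 and Ndufv1, median -0.65), a smaller share than the 4.41% of all genes. Only 6 of the 85 had a positive log2 fold change. In 21 of them every ipsilateral library lay below every contralateral one, against 12.4% of all genes. Ndufv1 lost its call with the mouse as a block (edgeR adjusted p = 0.0509). Of 19 immediate early genes, which tissue dissociation can induce, Klf2 was called lower, a share near the 4.41% of all genes. It stood at 99.8, 123 and 156 CPM against 292, 214, 249.7 and 344 CPM (-1.13 ± 0.30, edgeR adjusted p = 0.0425). With the mouse as a block 2 were called lower, Klf2 and Ier3 (edgeR adjusted p = 0.0334 and 0.0283).

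**Figure D4:**
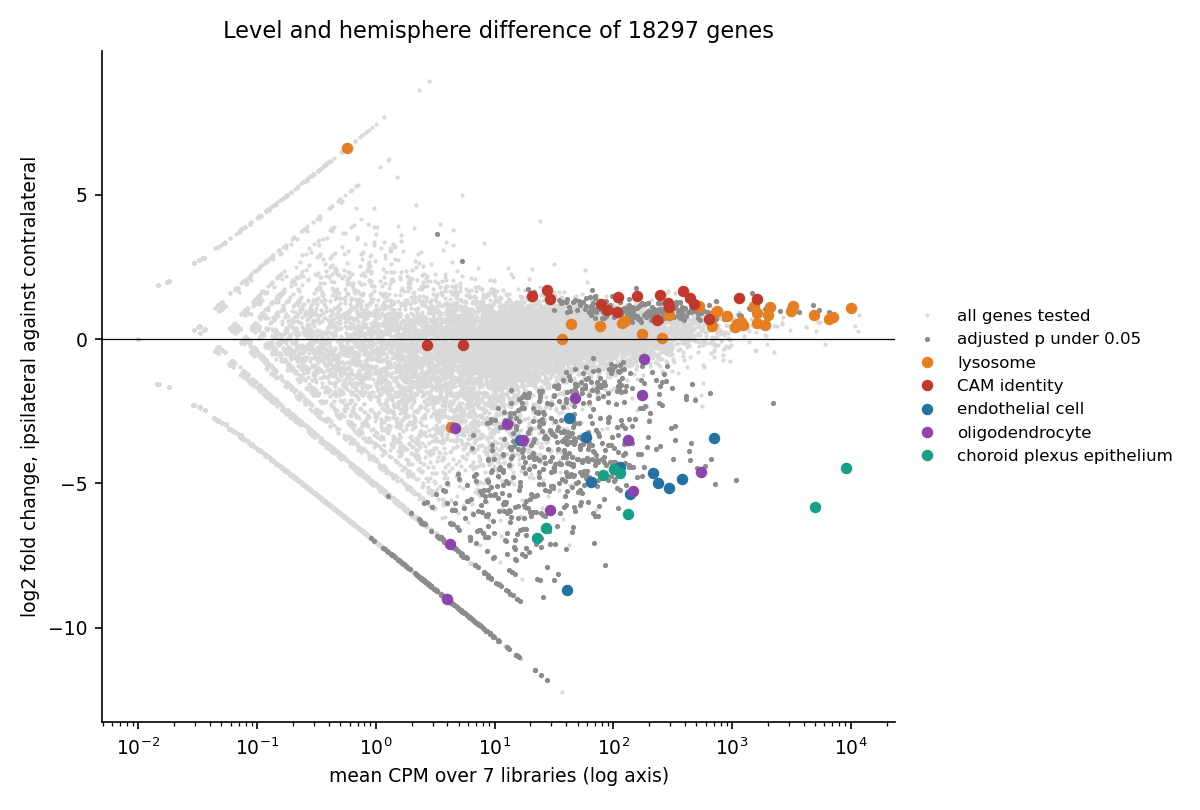
Log2 fold change between ipsilateral and contralateral BLZ945 sdCAMs against mean CPM over 7 libraries (log axis) for 18297 genes, with 5 gene lists in colour. Most lysosomal and CAM identity genes lie above 0 (medians 0.70 and 1.33) and the endothelial, oligodendrocyte and plexus genes below 0; straight lines of points are genes with few or no counts in 1 group, whose fitted values are not bounded.

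The size of the macrophage difference depended on the scale. When the libraries were instead scaled to 20 genes of the macrophage lineage (among them Ptprc, Itgam, Tyrobp and C1qa), a choice made after the values had been seen, the median log2 fold change of all genes moved from -0.15 to -0.99. On that scale 0 genes were called higher by edgeR and 2856 lower, and all 807 genes called lower kept their call. The 220 genes called higher had a median log2 fold change of 0.19 on that scale, and 178 of them stayed positive. Among the named genes that turned negative were Fcgr3 (0.81 to -0.0045), Cybc1 (0.81 to -0.04), Pdia4 (0.74 to -0.11), Pdia6 (0.70 to -0.16), Rpn1 (0.68 to -0.17) and Timp2 (0.67 to -0.16). Of the 20 scaling genes, which include the lysosomal Cd68 and Lgmn and the complement genes C1qa, C1qb and C1qc, 8 had themselves been called higher with TMM, so this scale sets their own average difference near 0 by construction.

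Relative to other macrophage genes, CAM identity genes kept the largest positive median of the lists plotted. It was 0.62 for the CAM list, against -0.18 for microglia, -0.10 for lysosome, 0.08 for complement, 0.09 for Toll-like receptors and -0.36 for MHC class II. Lyve1 remained higher by 0.95, Ccl8 by 1.01, Pf4 by 0.70 and Mrc1 by 0.72 on this scale, none of them called. Csf1r remained higher by 0.43 and Ctsb by 0.32. The medians of 21 of 47 lists changed sign on this scale, all from positive to negative. Besides the lysosomal, microglial, MHC class II and S phase lists these included N-glycosylation (0.59 to -0.23), integrated stress and unfolded protein (0.36 to -0.51), NADPH oxidase (0.68 to -0.12), macrophage transcription factors (0.67 to -0.09) and the CSF1 receptor axis (0.67 to -0.06). The medians of the vessel, glial and plexus lists stayed negative.

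**Figure D5:**
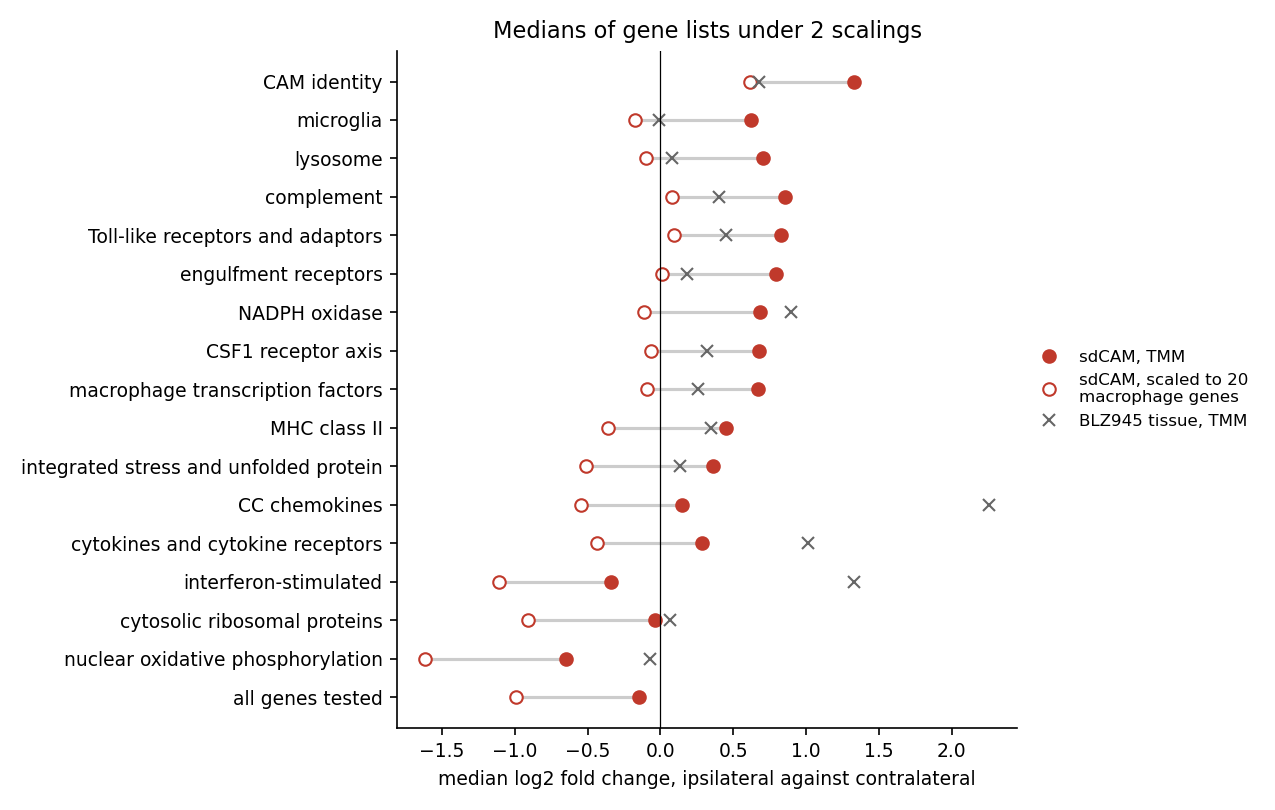
Median log2 fold change, ipsilateral against contralateral, of 16 gene lists and of all tested genes, with TMM scaling (filled circles), with scaling to 20 macrophage-lineage genes (open circles) and in BLZ945 brain tissue (crosses). Scaling to macrophage genes shifts every list to the left, and CAM identity stays at 0.62 while lysosome, microglia and MHC class II pass below 0.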

How the data were processed

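The authors demultiplexed reads with bcl2fastq 2.20, aligned them with STAR 2.7.11a and counted reads per gene with featureCounts 2.0.8, per the labels; the deposited files are raw counts, 1 table for sorted cells (33280 genes) and 1 for tissue. The exact genome build was not settled from the sources used here. Members and gene lists were chosen with earlier results of these data known. The 14 sdCAM libraries (without the low-count ipsilateral libraries of BLZ945 mouse C2 and CTL mouse A3, both labelled as degraded RNA) were fitted together in edgeR 4.0.16 (R 4.3.3) with TMM scaling, 4 groups, genes summing to 7 counts or more, and the quasi-likelihood test with Benjamini-Hochberg adjustment at 0.05. SE is the log2 fold change over the root of F. DESeq2 1.42.0, other scalings and filters, the mouse as a block and leaving out each mouse or library were alternatives. The fit was checked on simulated data with known folds, whose medians it recovered, though it called a minority of the smaller changes. Both hemispheres come from the same mouse, which makes the pairs; deviations from the group means correlated across 9533 genes by 0.234, 0.0747 and 0.25 in C3, C4 and D1. Library pairs differed far beyond sampling noise, so none was merged. At these depths 3 counts in 1 library are 0.303 to 0.38 CPM. Floors cover counting error only, whereas SE also takes in the estimated spread between libraries. Exon lengths are from GENCODE vM21 by gene name. Most genes named came from a pool set by rule, and not every gene of the pool is named. The pool held the 3 markers and the 12 largest called rises and falls of at least 10 CPM with the same direction in 3 mice. It also held the 6 most abundant called genes each way, up to 4 members of each list (called first, then by p), and genes called in all fits. The remaining called members of a list that the text enumerates were chosen after their values were seen. So were Ttr, Il1b, Ccl2, Ccl4, Ccl12, Spp1, Hmox1, P2ry12, Cldn5, Rpn1 and Sel1l.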

Additional observations from a re-analysis of the deposited data

Results flagged for a closer look

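Within the 4 contralateral libraries, 95 genes and list sums were screened for 1 library far from the other 3, and 5 stood out, about what a 1 in 20 chance per group gives. Tmppe, called higher ipsilaterally (edgeR adjusted p = 0.0365, but 0.101 with the mouse as a block), was 19.1 CPM in contralateral D1, above the other 3 libraries. Susd5 was 134 CPM and Sfrp4 89.1 CPM in contralateral C4, and Tnfaip6 was 116 CPM in contralateral C2; all 3 had 0 counts in the ipsilateral libraries. The 20 macrophage-lineage genes used for scaling summed to 19410 CPM in contralateral C4, below the 33140 to 33640 CPM of the other contralateral libraries, and that library also had the highest choroid plexus sum (56390 CPM).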

How the results depend on the processing

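Of 48 genes followed across the settings (the markers, the largest and most abundant changes and the calls kept in every fit), none changed direction under any of 20 alternatives. Of all 220 genes called higher, 178 kept a positive log2 fold change with macrophage-lineage scaling. Against 220 higher and 807 lower, the DESeq2 Wald test gave 514 and 2004, with 48 genes differing between BLZ945 and CTL where edgeR gave 0. The fit on only the 7 BLZ945 libraries gave 143 higher, all 16 libraries gave 4 and 424, a limit of 1 on the log2 fold change left 112 higher, and scaling to 20 macrophage-lineage genes, chosen after seeing the data, gave 0 and 2856. Leaving out a mouse or a library gave 8 to 371 higher and 262 to 889 lower, the lowest without mouse C4 and the highest without contralateral D1. With the mouse as a block the counts were 267 and 682, and 861 tissue genes were called instead of 170. Medians of 21 of 47 lists changed sign under macrophage-lineage scaling and of 0 to 5 under each of the others. The causes were not tested. With 3 and 4 libraries, differences of moderate size can be missed, and a gene at 0 counts may lie below the limit that depth sets.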

Other observations

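The ipsilateral library of mouse C2, which entered only the fit on all 16 libraries, held 55155 counts over 8688 genes. Among them were 10 counts of Mrc1, 8 of Cd163, 12 of Pf4 and 73 of Csf1r, and 2 of the endothelial gene Cldn5.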
